A study of Mus musculus with 6 samples.

Results

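Cathepsins are the main proteases of lysosomes and endosomes. Described here are the transcripts of 10 mouse cathepsin genes out of 46983 genes counted: Ctse, Ctsd, Ctsk, Ctss, Ctsl, Ctsb, Ctsz, Ctsc, Ctsh and Ctsa. They were taken by symbol, as a family assembled around Ctse, which was low in the knockout, and Ctsk, which was high. Those 2 genes were therefore chosen by their difference between the genotypes, and their values are given as a description without a test. All 10 had enough reads to enter the fit over all genes.

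The samples were colonies grown from lineage-depleted bone marrow, the fraction left once mature blood cells are removed, of C57BL/6 mice. Their age is labelled as 8 to 11 weeks, but the growth protocol gives 8 to 10 weeks. Colonies formed over 6 to 7 days in a methylcellulose medium that held IL-6, IL-3 and mSCF. The KO group (3 libraries) is named Psip1-KO, and the series design writes its allele as PsipVav/Vav. The WT group (3 libraries) is labelled wild type, while the design writes its allele as PsipFl/Fl, a floxed gene. The labels do not say which cells the Vav allele acts in, whether animals were pooled, or whether each library is a different animal. The p-values thus refer to variation among libraries that may be partly technical, although each genotype held libraries of both sexes, as given below. Psip1 encodes LEDGF, a chromatin protein, and the series concerns its role in blood formation and in leukemia with MLL rearrangements.

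Cathepsins are made as inactive proenzymes, are carried to acidic compartments by sorting receptors and mature there by cleavage. They fall into 3 catalytic classes here: aspartic (Ctse, Ctsd), cysteine (Ctsk, Ctss, Ctsl, Ctsb, Ctsz, Ctsc, Ctsh) and serine (Ctsa). Phagocytes use them to digest engulfed protein and antigen-presenting cells to trim the class II invariant chain, while mast cells and neutrophils need one of them to activate their granule proteases.

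Depth differed widely. The 3 KO and the first 2 WT libraries held 7056614 to 15569088 reads on genes, but WT replicate 3 held 27909, so that 1 of its reads was worth 29.9 CPM (counts divided by the effective library size and scaled to 1e+06 reads). It is given as reads, and CPM are given for the 5 deep libraries. Mitochondrial genes took 15.7% of the reads in KO replicate 2 and 9.52% in WT replicate 3, against 1.26% to 1.84% in the others. Psip1 stood at 14.8, 17.6 and 16.3 CPM in KO replicates 1, 2 and 3 and at 89.3 and 70.0 CPM in WT replicates 1 and 2, with 3 reads in WT replicate 3. The knocked-out gene was thus lower in every KO library, as labelled, at a fitted log2 fold change of -2.32 (SE 0.32). Its adjusted p = 0.060 by edgeR's quasi-likelihood test, so even this gene missed the threshold of 0.05.

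Ctse encodes cathepsin E, an aspartic protease of endosomes in immune cells and gastric epithelium (ENSMUSG00000004552.16, plus strand of chromosome 1, 131638306 to 131675505, GRCm38). It had 6.21, 11.9 and 7.39 CPM in KO replicates 1, 2 and 3, from 79, 75 and 112 reads. In WT replicates 1 and 2 it had 176 and 101 CPM, from 2419 and 1030 reads. Every KO library thus lay far below both deep WT libraries. The KO mean of 8.49 ± 2.98 CPM (SD, n = 3) was 6.14% of the mean of the 2 deep WT libraries, 138 CPM. Over all 6 libraries the fitted log2 fold change was -3.84 (SE 0.53). Among the 10 members it was the lowest per kilobase in KO, whereas in both deep WT libraries it stood above Ctsk.

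WT replicate 3 held 0 Ctse reads. At its depth the levels of KO replicates 1, 2 and 3 would give 0.208, 0.397 and 0.247 reads, and those of WT replicates 1 and 2 would give 5.88 and 3.38. A count of 0 allows up to 3 reads (89.6 CPM), while the exact 95% interval ends at 3.69 reads. All KO levels lie under both limits, that of WT replicate 1 lies above both, and that of WT replicate 2 lies between them, so the count does not place this library against WT replicate 2. The low level of Ctse in KO rests on WT replicates 1 and 2. Intervals and floors cover counting error only.

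Ctsd, the other aspartic member, encodes the chief aspartic protease of lysosomes (chromosome 7, minus strand, 142375911 to 142388038) and did not follow Ctse. It had 3726, 3802 and 9176 CPM in KO replicates 1, 2 and 3 and 7422 and 3232 CPM in WT replicates 1 and 2, so the groups overlapped. Its log2 fold change was 0.38 (SE 0.59, adjusted p = 1 by edgeR's quasi-likelihood test with Benjamini-Hochberg adjustment over 12292 genes). Without WT replicate 3 it was 0.063. The ratio of Ctsd to Ctse per kilobase was 599, 320 and 1241 in KO replicates 1, 2 and 3, against 42.3 and 32.0 in WT replicates 1 and 2.

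**Figure D1:**
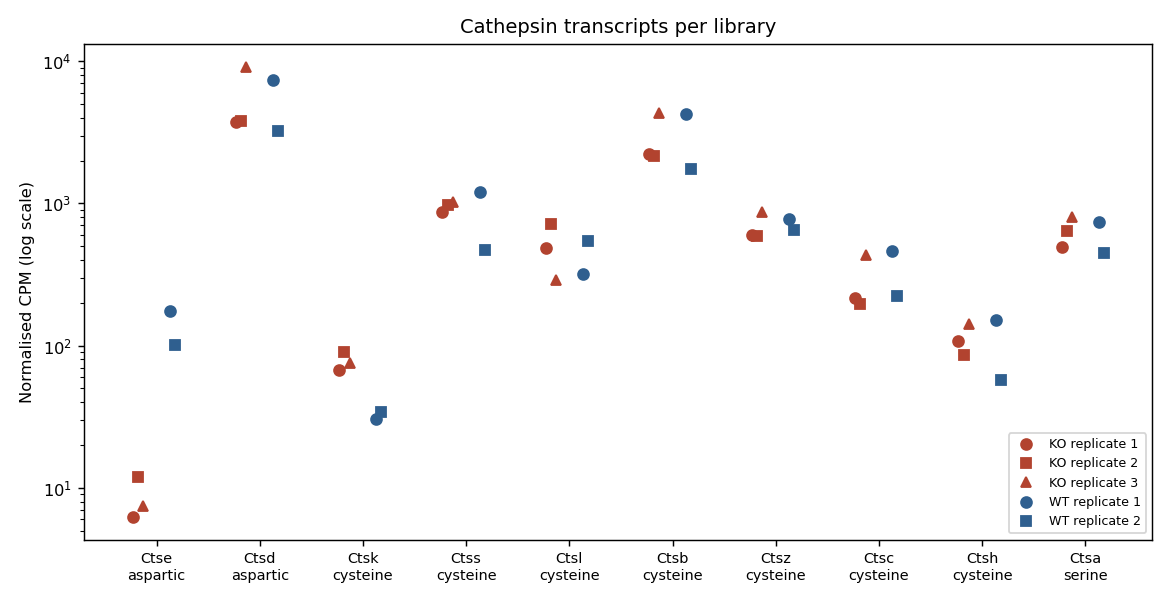
Normalised CPM (log scale) of the 10 cathepsin genes in the 5 deep libraries, 1 point per library, with the 3 KO libraries left of the 2 deep WT libraries for each gene. Ctse and Ctsk, which chose the set by their difference, are the 2 genes whose genotypes do not overlap, as for 8.66% of all genes tested. Ctse is at 6.21 to 11.9 CPM in KO against 101 to 176 CPM in WT.

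Ctsk encodes cathepsin K, the collagen-degrading protease best known from osteoclasts (ENSMUSG00000028111.4, plus strand of chromosome 3, 95499256 to 95509362). It had 66.9, 90.01 and 75.7 CPM in KO replicates 1, 2 and 3, from 850, 569 and 1148 reads, and 30.6 and 33.9 CPM in WT replicates 1 and 2, from 421 and 346 reads. All KO libraries lay above both deep WT libraries. The KO mean was 77.5 ± 11.7 CPM (SD, n = 3), 2.41 times the mean of the 2 deep WT libraries, 32.2 CPM, and the fitted log2 fold change was 1.33 (SE 0.37). WT replicate 3 had 0 reads, where 2.60 would come from the KO mean and 1.08 from the deep WT mean, so that library cannot tell these levels apart.

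Ctss, which encodes the cysteine protease that antigen-presenting cells use on the invariant chain, starts 27.5 kb from Ctsk on the same strand (95526786 to 95556403). Cathepsin S transcripts stood at 873, 967 and 1017 CPM in KO replicates 1, 2 and 3 and at 1200 and 472 CPM in WT replicates 1 and 2. The WT libraries lay on either side of all KO libraries, so the groups overlapped. Its log2 fold change was 0.45 (SE 0.46, adjusted p = 1 by edgeR), and 0.18 without WT replicate 3. The ratio of Ctss to Ctsk per kilobase was 14.6, 12.0 and 15.0 in KO replicates 1, 2 and 3, and 43.8 and 15.6 in WT replicates 1 and 2.

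Whether the genotype pattern differs between the adjacent genes Ctsk and Ctss was not tested. Without WT replicate 1 the log2 fold change was 1.36 for Ctsk and 1.24 for Ctss. The promoter windows of the pair are shown with that of Ctsd, the most abundant member. They are windows of 300 bases around RefSeq's gene start, which can differ from the GENCODE start given above, written 5′ to 3′ on the strand of the gene (GRCm38.p6). Capitals mark CACGTG, the E-box core that MiT/TFE factors and other helix-loop-helix proteins bind, or the PU.1 consensus GAGGAAGT in either orientation, here read as ACTTCCTC.
Ctsk, chr3:95498960-95499259, plus strand: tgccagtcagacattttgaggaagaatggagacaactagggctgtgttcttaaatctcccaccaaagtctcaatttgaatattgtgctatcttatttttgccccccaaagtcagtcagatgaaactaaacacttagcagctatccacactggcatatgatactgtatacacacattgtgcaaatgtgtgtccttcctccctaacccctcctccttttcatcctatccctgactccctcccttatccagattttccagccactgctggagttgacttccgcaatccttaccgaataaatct
Ctss, chr3:95526536-95526835, plus strand: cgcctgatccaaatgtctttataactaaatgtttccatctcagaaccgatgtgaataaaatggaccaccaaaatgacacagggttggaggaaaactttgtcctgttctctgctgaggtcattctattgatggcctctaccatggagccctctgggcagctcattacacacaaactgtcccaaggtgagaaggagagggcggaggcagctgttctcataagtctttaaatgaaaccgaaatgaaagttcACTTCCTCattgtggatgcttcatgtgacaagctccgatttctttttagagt
Ctsd, chr7:142387778-142388077, minus strand: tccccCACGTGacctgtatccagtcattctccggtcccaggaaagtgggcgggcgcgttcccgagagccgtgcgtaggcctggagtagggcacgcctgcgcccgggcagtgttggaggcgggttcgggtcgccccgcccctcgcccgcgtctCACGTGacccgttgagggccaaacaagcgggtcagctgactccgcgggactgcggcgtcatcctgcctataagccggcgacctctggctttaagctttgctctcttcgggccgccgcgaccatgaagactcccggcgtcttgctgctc
RefSeq windows were found for 7 members (Ctsk, Ctss, Ctsd, Ctsl, Ctsz, Ctsc and Ctsa, the last with 2 windows), and Ctse, Ctsb and Ctsh had no entry. On either strand, CACGTG was in windows of 3 of these genes (Ctsa, Ctsd and Ctsl), against 7.17% of 32544 distinct promoter windows. The longer TCACGTGA, which contains CACGTG, was in windows of Ctsa and Ctsd, against 0.983%, when searched on its own. GAGGAAGT was in windows of Ctss and Ctsc, against 3.11%. The Ctsk window held none of these letters. These are letter matches only.

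The remaining 6 genes were Ctsl, Ctsb, Ctsz, Ctsc and Ctsh of the cysteine class and the serine member Ctsa. The genotypes overlapped for each of them.

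Ctsl, a broad endopeptidase (chromosome 13, 64359337 to 64370890), had 485, 713 and 290 CPM in KO replicates 1, 2 and 3 and 318 and 546 CPM in WT replicates 1 and 2. KO replicate 2 was highest and KO replicate 3 lowest, so a single genotype spanned the full range. The log2 fold change was 0.14 (SE 0.41).

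Ctsb, an endopeptidase that also removes dipeptides from protein ends (chromosome 14, 63122462 to 63145923), had 2210, 2152 and 4331 CPM in KO replicates 1, 2 and 3 and 4284 and 1733 CPM in WT replicates 1 and 2, so the groups overlapped. Its log2 fold change of 0.12 (SE 0.51) turned to -0.056 without WT replicate 3.

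Ctsc encodes dipeptidyl peptidase I, which activates the granule serine proteases of neutrophils and mast cells (chromosome 7, 88278085 to 88310888). It had 215, 197 and 432 CPM in KO replicates 1, 2 and 3, against 462 and 222 CPM in WT replicates 1 and 2, and the groups overlapped. At -0.034 (SE 0.49) it was the lone member besides Ctse with a negative log2 fold change, and 5 of 16 alternatives turned that sign.

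Ctsz, a carboxypeptidase (chromosome 2, 174427493 to 174439039), had 601, 591 and 875 CPM in KO replicates 1, 2 and 3 and 773 and 647 CPM in WT replicates 1 and 2. Ctsh, an aminopeptidase (chromosome 9, 90054152 to 90076089), had 108, 86.4 and 142 CPM in the KO libraries in that order and 152 and 57.3 CPM in WT. Ctsa, a serine carboxypeptidase that also shields lysosomal galactosidase and neuraminidase (chromosome 2, 164832873 to 164841032), had 493, 638 and 808 CPM in KO and 740 and 447 CPM in WT. The log2 fold change was 0.18 (SE 0.39) for Ctsz, 0.18 (SE 0.43) for Ctsh and 0.22 (SE 0.37) for Ctsa. In each of them a WT library lay inside the KO range or on both sides of it.

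No gene of the 12292 tested passed the adjusted p threshold of 0.05 between the genotypes (0%), so 0 of 10 cathepsins called matches the background. At an unadjusted p under 0.05 edgeR had 178 genes, DESeq2 had 38 and limma-voom 109. At the adjusted threshold DESeq2 called 1 gene and limma-voom 0. The gene was Ctse, which was chosen by this difference, so the call is no independent evidence. Besides Ctse and Ctsk, which chose the set, 0 of the 8 other cathepsins had an unadjusted p under 0.05 by edgeR, DESeq2 or limma-voom. Their log2 fold changes ran from -0.034 to 0.45, with a median of 0.18 and standard errors of 0.37 to 0.59, where all genes tested had a median of 0.013. Of all genes tested 52.0% had a positive value, the share to set beside the counts of signs given below. Leaving out a single library turned the sign of 6 of the 8 (Ctsd, Ctsl, Ctsb, Ctsz, Ctsc and Ctsh). Without WT replicate 3 the 8 values ran from -0.28 (Ctsc) to 0.20 (Ctsl), and Ctsb and Ctsz were negative too. The median of all genes was then -0.024. No overlap between the 3 KO and the 2 deep WT libraries was seen in 2 of the 10 cathepsins, the pair that chose the set, and in 8.66% of all genes tested. Among the 8 others it was 0. A p near 1 at these standard errors does not show that their levels were equal.

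**Figure D2:**
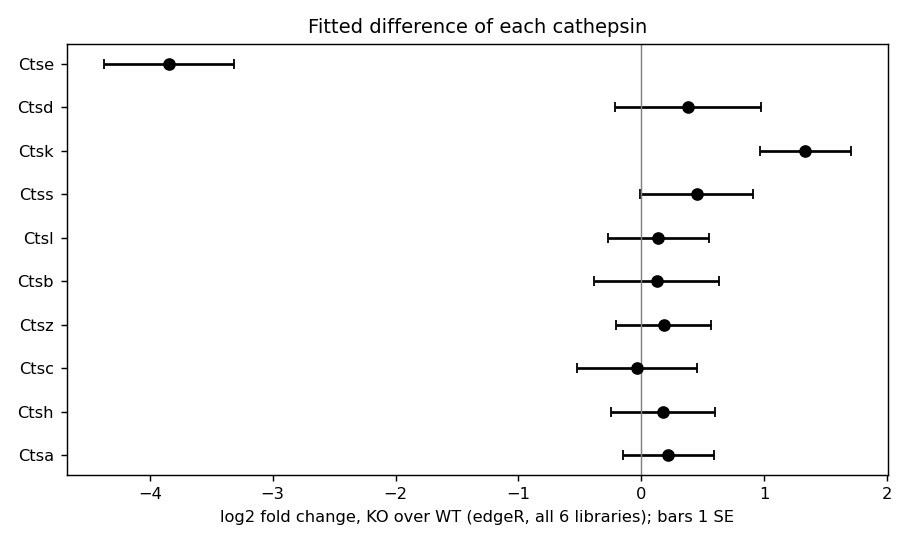
Log2 fold change of KO over WT for each cathepsin from the edgeR fit on all 6 libraries, with bars of 1 SE. Ctse at -3.84 and Ctsk at 1.33 were chosen by this difference, and the 8 others lie between -0.034 and 0.45.

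Scaled to the length of a reference transcript, Ctsd was the most abundant in each deep library, with a median of 1787 RPKM (CPM per kilobase of transcript, range 1519 to 4314, n = 5 libraries). Ctss followed at 714 RPKM (349 to 886), Ctsb at 466 (365 to 913) and Ctsz at 449 (410 to 608), and neighbours among these 3 changed places between libraries. Ctsa at 252 RPKM (177 to 319) and Ctsl at 246 (147 to 362) also changed places, Ctsa being above Ctsl in 2 of 5 libraries. Ctsc at 68.8 RPKM (61.1 to 143) lay above Ctsh at 66.5 (35.4 to 93.9) in all 5, by a factor of 1.00 to 1.94. Ctsk had a median of 44.2 RPKM (20.2 to 59.5).

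Ctse was last by its median of 5.58 RPKM, but this hides its split. It had 2.92, 5.58 and 3.48 RPKM in KO replicates 1, 2 and 3 and 82.6 and 47.4 RPKM in WT replicates 1 and 2. Ctsk had 44.2, 59.5 and 50.1 RPKM in the same KO libraries and 20.2 and 22.4 RPKM in WT, so the order of the pair was opposite in the 2 genotypes. With the merged length of all annotated exons, Ctsz passed Ctsb and Ctsk passed Ctsc and Ctsh, while Ctsd stayed first and Ctse last. Reads come from all isoforms of a gene, so these levels depend on the length chosen.

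**Figure D3:**
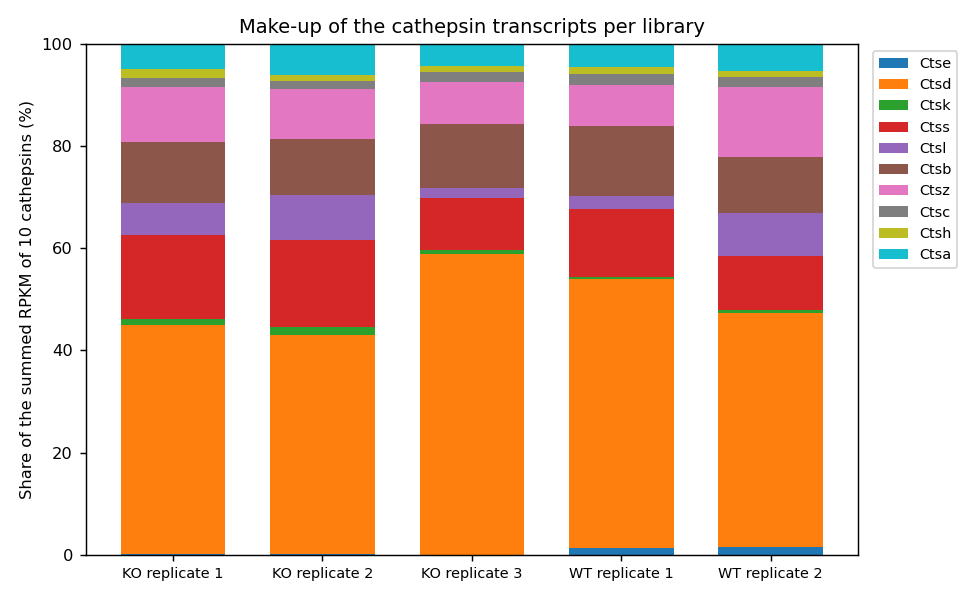
Share of the summed RPKM of the 10 cathepsins taken by each gene (percent, stacked to 100) in the 3 KO and the 2 deep WT libraries. Ctsd takes 43.0% to 58.9% in KO and 45.9% to 52.8% in WT, and Ctse, the lowest band, 0.0474% to 0.134% in KO and 1.25% to 1.43% in WT.

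The 10 genes together took 0.878%, 0.828% and 1.67% of gene reads in KO replicates 1, 2 and 3 and 1.496% and 0.734% in WT replicates 1 and 2. KO replicate 3 and WT replicate 1 thus held about as much cathepsin RNA as each other and more than the other 3. These 2 libraries were the highest of the 5 for 7 cathepsins (Ctsd, Ctss, Ctsb, Ctsz, Ctsc, Ctsh and Ctsa). They were the lowest for Ctsl. Among all genes tested, they were the highest pair for 29.3% and the lowest pair for 28.4%. The summed CPM of 39 other lysosomal hydrolases was also highest in these libraries, at 5327, 5054 and 7572 in KO replicates 1, 2 and 3 and 7157 and 4890 in WT replicates 1 and 2.

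The closest profiles among the cathepsins were those of Ctsd and Ctsb, which differed by a root mean square of 0.12 log2 units over the 5 deep libraries, each gene centred on its own mean. Ctsb and Ctsc followed at 0.17 and Ctsd and Ctsc at 0.19. Ctsl differed from Ctsd by 1.06, and Ctse from every other member by 1.88 or more.

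Marker lists moved across the same libraries. The summed CPM of 18 macrophage markers was 1997 to 2724 in KO and 1930 to 2618 in WT, and it too was highest in KO replicate 3 and WT replicate 1. Of these markers 17 of 18 were tested, and Cd163 was at 0 in all libraries but WT replicate 2, with 2 reads. The sum of 9 eosinophil markers was 517 to 1826 CPM in KO and 613 to 1742 CPM in WT, with its highest values in the same libraries, as had the sum of 13 erythroid markers (383 to 699 CPM in KO and 617 to 689.9 CPM in WT). The sum of 16 neutrophil markers, 37627 to 92036 CPM in KO and 47879 to 103441 CPM in WT, was highest in KO replicate 1 and WT replicate 2. The sum of 15 mast cell and basophil markers was 3432 to 10333 CPM in KO, with KO replicate 2 highest, and 5244 to 6299 CPM in WT. The part of cell make-up in the cathepsin levels was not tested, and fewer cells of a type cannot be told apart from less RNA per cell in such bulk samples.

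**Figure D4:**
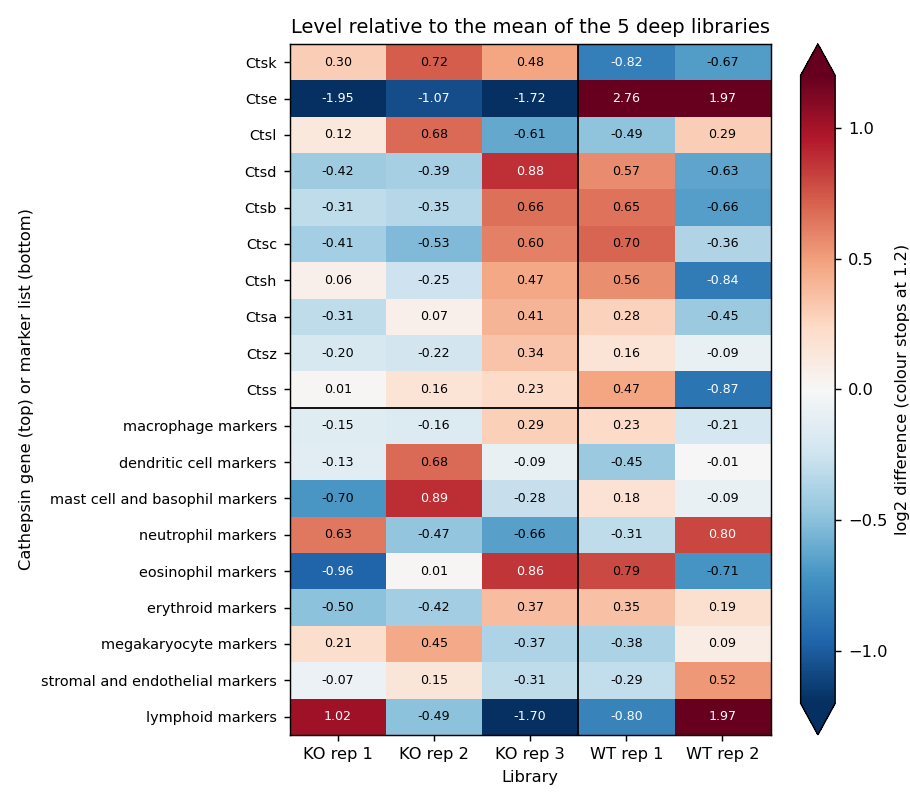
Log2 level of each cathepsin (top) and of the summed CPM of each marker list (bottom) relative to its mean over the 5 deep libraries, with KO libraries left of WT libraries. Ctsk and Ctse, which chose the set, divide by genotype. Ctsd and the 6 genes under it are highest in KO replicate 3 and WT replicate 1, where macrophage, eosinophil and erythroid markers are highest as well.

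The labels give no sex. Xist was read in KO replicate 1 and WT replicate 2 (12107 and 5910 reads) and the Y-linked Eif2s3y in the other 4 libraries, with 4 reads in WT replicate 3. Each genotype thus held both sexes, so its libraries did not all come from a single animal. The female libraries were KO replicate 1 and WT replicate 2, whose log2 difference in Ctse was -4.02. Set against the male WT replicate 1, KO replicate 2 was at -3.89 and KO replicate 3 at -4.57. For Ctsk the female difference was 0.98, and the male ones, which share WT replicate 1, were 1.56 and 1.31. The sign of these differences is fixed by the choice of Ctse and Ctsk, whose genotypes do not overlap. Ctss was at 0.89 in the female pair and at -0.31 and -0.24 in the male ones, and Ctsh was at 0.91, -0.81 and -0.093. The difference of the genotype effect between the sexes was called by edgeR for 0 of the 10 members and for 8 of 12292 genes. That fit had a single female library per genotype, and its male WT side included WT replicate 3. It therefore does not show that the genotype effect was alike in the sexes.

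Across 11288 tested genes of at least 1 CPM with a proper symbol, the profile most like that of Ctse over the 5 deep libraries was that of Psip1 itself, at a root mean square difference of 0.87 log2 units. Ptk7, a receptor-like kinase gene, was at 1.16, and the mast cell protease genes Mcpt1, Mcpt4 and Mcpt2 at 1.19, 1.23 and 1.24. The order of the libraries was not the same in all of them, since Mcpt1 and Mcpt2 overlapped between the genotypes. Ctse was chosen for its low level in KO, and Psip1 is the knocked-out gene. Genes much lower in KO therefore lie near Ctse by that choice, and the likeness is no evidence of a link.

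Ctsk was chosen for its high level in KO, so the same limit holds for its nearest profiles, which were closer than those of Ctse. They were those of Ptk2, which encodes focal adhesion kinase (0.14), the collagen gene Col23a1 (0.14), Spaca6 (0.15), Tchh (0.16) and Kbtbd11 (0.16). Ptk2 had 7.39, 8.23 and 8.97 CPM in KO replicates 1, 2 and 3 and 3.19 and 3.82 CPM in WT replicates 1 and 2, for example. Around Ctss the nearest were Mex3b (0.078), the serotonin receptor gene Htr2b (0.087), Samd8 (0.093), Gsap (0.095) and Arl6 (0.095), none of which separated the genotypes.

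No gene beside Ctse or Ctsk on the chromosome was called. The nearest tested genes of Ctse were Fam72a, 110 kb away, at a log2 fold change of 0.12 (SE 0.46), and Rab7b, a late endosomal GTPase gene 50.4 kb away, at 0.11 (SE 0.40). Of 23 other tested genes within 1000 kb of its start, 15 were positive and 8 negative, with a median of 0.11 and 0 called. Ctsk lies between Arnt, which encodes a partner of hypoxia factors (0.046, SE 0.34), and Ctss. Of 53 other genes around it 30 were positive and 23 negative, with a median of 0.046 and 0 called.

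**Figure D5:**
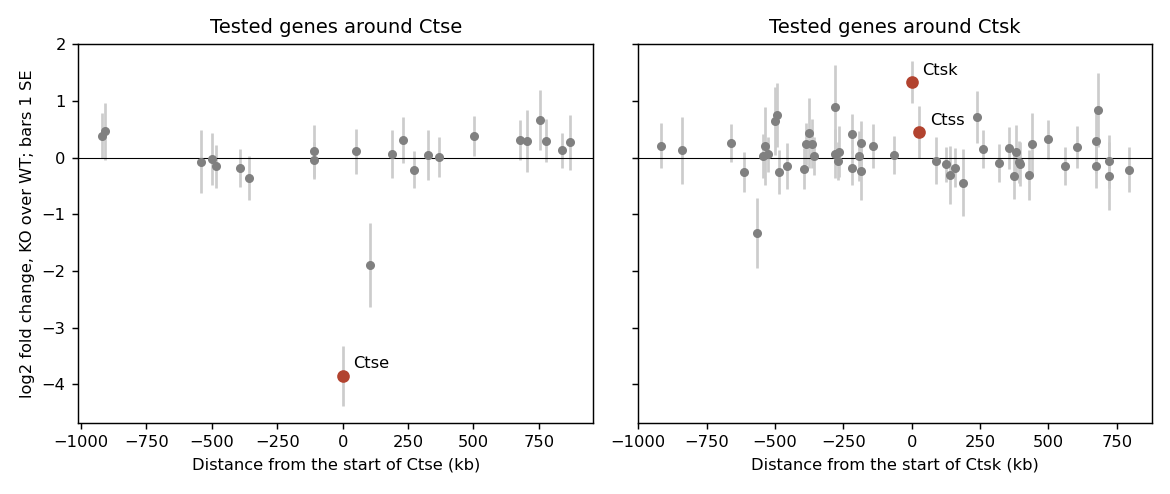
Log2 fold change of KO over WT (bars 1 SE) of every tested gene within 1000 kb of the start of Ctse (left panel) and Ctsk (right panel), against distance in kb. Ctse is at -3.84 and its nearest tested genes Fam72a and Rab7b at 0.12 and 0.11, the lowest other gene on that panel is Slc26a9 at -1.89, and Ctss at 0.45 is the nearest gene to Ctsk at 1.33.

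Most other cathepsin genes had no reads. Of 13 further genes 8, known from the placenta, had 0 reads in every library. Ctsg, the serine protease of neutrophil granules, had 746, 338 and 248 CPM in KO replicates 1, 2 and 3 and 346 and 951 CPM in WT replicates 1 and 2 (log2 fold change -0.29, SE 0.54). Its highest KO and WT values were in KO replicate 1 and WT replicate 2, where the sum of neutrophil markers, which includes Ctsg itself, was highest. Ctso (0.26, SE 0.45) and Ctsf (0.83, SE 0.61) were low.

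None of the inhibitors of cathepsins was called. Among 12 tested cystatins, stefins and serpins (of 19 found) the values were positive for 9 and negative for 3, and their median was 0.45 on the log2 scale. The groups did not overlap for 4 that were higher in KO (Stfa3, BC100530, Serpinb6a and Serpinb6b) and 2 that were lower (Cst3 and Cst7), where 4.79% and 3.87% of all genes did so. Stfa3, a stefin gene, had 959, 740 and 634 CPM in KO replicates 1, 2 and 3 and 324 and 474 CPM in WT replicates 1 and 2, with 17 reads in WT replicate 3 (0.87, SE 0.36). Serpinb6b, a clade B serpin gene, had 4.33, 11.1 and 4.29 CPM in KO and 1.74 and 2.06 CPM in WT (1.78, SE 0.59). BC117090, also of the stefin family, was at 0.99 (SE 0.51). All 3 had an adjusted p = 1 by edgeR over all genes. Stefin genes of this cluster are close copies of each other, so their counts are uncertain, and neutrophil markers differed between the libraries as given above.

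In the rest of the lysosomal pathway 0 genes were called in any list, as in the whole table. The list medians were 0.060 to 0.13, while single genes lay further from 0 with wide standard errors. The values of these and the other lists come from the fit that includes WT replicate 3. How far they rest on that library was not tested. Among sorting receptors and processing factors 15 of 19 were positive (median 0.070). The lowest p were those of Cln3 (0.39, SE 0.36), Psap, the saposin precursor gene (0.48, SE 0.61), and the adaptor gene Gga3 (0.23, SE 0.32). Psap had 3980, 3829 and 8689 CPM in KO replicates 1, 2 and 3, and 6728 and 3582 CPM in WT replicates 1 and 2. Its groups thus overlapped, and WT replicate 3 held 48 reads. Among 39 other hydrolases 25 were positive and 14 negative (median 0.060), with Galc at -0.34 (SE 0.35), Naglu at 0.32 (SE 0.34) and Dpp7 at 0.40 (SE 0.43). Among 27 membrane and proton pump genes 18 were positive (median 0.13), and the pump subunit genes Atp6v0d2, Atp6v0a1 and Tcirg1 had the lowest p, at 0.73 (SE 0.41), 0.56 (SE 0.39) and 0.34 (SE 0.34). Among 13 regulators of lysosomal genes 8 were positive (median 0.098), with Tfeb at 0.18 (SE 0.39), Rragd at 0.99 (SE 0.61), Rragb at -0.65 (SE 0.62) and Flcn at 0.40 (SE 0.46).

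Ctsk was set beside the genes osteoclasts use with it. Of 13 tested 10 were positive and 3 negative, with a median of 0.23 and 0 called. Atp6v0d2, Mmp9 (0.90, SE 0.74) and Car2 (-0.71, SE 0.60) had the lowest p, Acp5 was at 0.085 (SE 0.44), and the calcitonin receptor gene Calcr had 0 reads in every library. Class II processing genes, the setting in which Ctss acts, had 9 of 10 positive values (median 0.29), with H2-Aa at 0.65 (SE 0.37), H2-Ab1 at 0.58 (SE 0.46) and H2-DMb1 at 0.46 (SE 0.58).

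Cell type markers were not called either. Of 17 tested macrophage markers 7 were positive and 10 negative (median -0.15), with C1qa at -2.35 (SE 0.67), F13a1 at -1.42 (SE 0.43) and C1qc at -1.195 (SE 0.62). All 7 tested dendritic cell markers of 12 listed were positive (median 0.65), against 52.0% of all genes tested. H2-Aa, H2-Ab1, H2-Eb1 and Cd74 also stand in the class II list above, so these values are counted in both. The others included Itgax (0.97, SE 0.46) and Clec9a (1.73, SE 0.88), and the genotypes overlapped for Clec9a. Flt3, Zbtb46, Xcr1, Cd209a and Siglech had too few reads to be tested. The summed CPM of the 12 was 427 to 748 in KO, highest in KO replicate 2, and 343 to 466 in WT. Of 15 mast cell and basophil markers 6 were positive and 9 negative, and the chymase genes Mcpt4 (-2.28, SE 0.53), Mcpt1 (-2.53, SE 0.74) and Mcpt2 (-1.92, SE 0.75) had the lowest p. Of 13 stromal and endothelial markers 4 were tested, 3 positive and 1 negative, and 2 were at 0 in every library. Col1a1 was at 0.64 (SE 0.50), Pdgfrb at 0.46 (SE 0.52) and Pecam1 at -0.23 (SE 0.38). The list summed to 144 to 198 CPM in KO and 145 to 256 CPM in WT. Most of that sum was Pecam1, at 131, 174 and 120 CPM in KO replicates 1, 2 and 3 and 127 and 235 CPM in WT replicates 1 and 2. Among the other lists, 6 of 16 neutrophil, 5 of 8 eosinophil, 1 of 9 erythroid, 3 of 8 megakaryocyte and 0 of 2 lymphoid markers tested were positive. The part of these cell types in the Ctse and Ctsk differences was not tested.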

How the data were processed

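The authors deposited raw counts of reads on each gene from stranded polyA libraries (TruSeq Stranded mRNA, per the labels' protocols). STAR 2.5.1b, DESeq2 and GRCm38 are named per the submitters' processing notes, and the annotation release is not given there. Column 4, the reverse strand, was taken, and held 95.6% to 97.5% of stranded gene reads. Rows naming no gene held 25.6% to 47.8% of reads per library and were left out. Identifiers were matched to GENCODE M21 without their version (46488 of 46983). The 2 runs of WT replicate 3 (27351 and 558 gene reads) were summed.

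Genes were filtered with filterByExpr, scaled by TMM and tested over the whole table with edgeR 4.0.16 (glmQLFit, robust, glmQLFTest, two-sided) on genotype, with Benjamini-Hochberg adjustment and a threshold of 0.05, and the fit was tested on simulated data. SE is the log2 fold change over the root of F. RPKM use the best supported coding transcript, and merged exons as an alternative chosen after seeing the data. Profiles use log2(CPM + 0.5). Named genes were the members, the 3 of lowest p per fixed list, the 5 most alike in profile and the nearest neighbours. Genes named beyond that rule were chosen after their values were seen. Members and lists were chosen with earlier results of these data known. Alternatives covered scaling, filter, DESeq2 1.42.0, limma-voom (limma 3.58.1), strand, runs, block, sex and left-out libraries.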

Additional observations from a re-analysis of the deposited data

How the results depend on the processing

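Over 16 alternatives to the fit, 15 of 160 cathepsin values turned sign, none of them for Ctse, Ctsk, Ctss or Ctsa. Ctse ran from -4.14 (without KO replicate 2) to -3.25 (without WT replicate 1) and Ctsk from 1.22 to 1.47. Ctss ran from 0.18 to 1.24 and Ctsa from 0.053 to 0.59. Ctsc turned sign with DESeq2 (0.025) and with the replicate block (0.019). With 1 library left out, Ctsc ran from -0.47 to 0.66 (turned without WT replicate 1, KO replicate 1 or KO replicate 2), Ctsl from -0.21 to 0.45 (WT replicate 1 or KO replicate 2) and Ctsb from -0.26 to 0.73 (WT replicate 2, WT replicate 3 or KO replicate 3). Ctsh ran from -0.19 to 1.015 (turned without WT replicate 2 or KO replicate 3), Ctsz from -0.044 to 0.46 (WT replicate 3 or KO replicate 3) and Ctsd from -0.16 to 1.11 (KO replicate 3). Adjusted p of the 8 members other than Ctse and Ctsk ran from 0.64 to 1, and 2 of them had an unadjusted p under 0.05 without WT replicate 1.

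Genes called over the whole table numbered 0 in the reported fit, 2 with scaling by library size, 9 without a filter, 1 with DESeq2, 13 with run 2 of WT replicate 3 in place of both runs, 13 with the replicate block and 4 with sex as a term. Leaving out 1 library gave 0 to 5, with 5 without WT replicate 1 or KO replicate 3, 3 without WT replicate 2 and 2 without KO replicate 1. Cathepsins called numbered 0 in the reported fit, 1 in each of the other 6 settings just named, and 0 to 1 with a library left out (1 without WT replicate 1, WT replicate 2 or KO replicate 3). That gene was Ctse each time, which chose the set, so this is no independent evidence. Listed pathway and marker genes called numbered 1 with the block (Mcpt1) and 0 to 1 with a library left out (Mcpt4, without WT replicate 1). The cause was not tested. The median log2 fold change of all genes was 0.013 in the reported fit, -0.32 with DESeq2 and 0.13 without WT replicate 1. Same-numbered libraries did not deviate together (correlations of -0.29, -0.032 and -0.15 for replicates 1, 2 and 3), so the numbers were not taken as pairs. WT replicate 3 limits the WT side, since 1 of its reads is worth 29.9 CPM. Depth is not its only limit, because some of its reads fell on genes unread elsewhere. It held 3 reads of Col3a1, 1 of Lum and 1 of A2m, where every deep library held 0. These genes were picked out because of those counts, which are few. The source of these reads was not tested, and the library enters the reported fit.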

Other observations

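WT replicate 3 was set against each deep library at its own depth, by counting error alone. It held 70 Ctsd reads (exact 95% interval 54.6 to 88.4), where the levels of KO replicates 1, 2 and 3 would give 125, 127 and 307 reads and those of WT replicates 1 and 2 would give 248 and 108. All 5 expectations lie above that interval. For Ctsz it held 11 reads (5.49 to 19.7), with expectations of 19.8 to 29.3 from KO and of 25.9 and 21.7 from WT replicates 1 and 2, also all above. Its 64 Ctsb reads (49.3 to 81.7) were within reach of 3 of the 5, KO replicates 1 and 2 and WT replicate 2, at 74.0, 72.0 and 58.0 reads. Its 11 Ctss reads (5.49 to 19.7) were within reach of WT replicate 2 alone, at 15.8 reads. The spread between libraries is not part of these intervals, and 9.52% of gene reads in this library were mitochondrial.

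Within 1000 kb of Ctse, Slc26a9, a chloride transporter gene 106 kb away that was named after its values were seen, had 12, 12 and 21 reads in KO replicates 1, 2 and 3 and 105 and 15 in WT replicates 1 and 2 (log2 fold change -1.89, SE 0.74). Among the deep libraries the high value was that of WT replicate 1 alone, and WT replicate 3 held 1 read. Stfa1, a stefin gene also named after its values were seen, had 128, 2609 and 49 reads in KO replicates 1, 2 and 3 and 33 and 6157 in WT replicates 1 and 2. It was thus high in a single library of each genotype, and its count is uncertain because stefin copies share sequence.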
